A study of Mus musculus with 3 samples.

Results

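Early adipocytes were the cells of the inguinal stromal vascular fraction (SVF) that held RNA of both *Adipoq*, which encodes the fat cell hormone adiponectin, and *Plin1*, which encodes perilipin 1, a coat protein of lipid droplets. They were chosen by their counts of unique molecular identifiers (UMIs, each standing for 1 captured RNA molecule). A cell had to hold at least 2000 UMIs with at most 10% from mitochondrial genes, at least 5 UMIs of *Adipoq* and 2 of *Plin1*, and no UMI of *Epcam*, *Pecam1* or *Ptprc*, which mark epithelial, endothelial and immune cells. This selected 132 of 31905 cells: 98 of 10511 in the wild-type library, 16 of 12575 in *Mgp*-KO and 18 of 8819 in *Pd*-KO.

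SVF cells came from inguinal fat of 4-week-old mice, pooled by genotype, sorted to remove dead and CD45+ cells, and sequenced in 1 library per genotype with the 10x Genomics 3′ assay. Wild-type mice were compared with *Mgp*-KO mice, which lack *Mgp* in all cells, and with *Pd*-KO mice, in which Cre driven by *Pdgfra* deletes a floxed *Mgp*, so that the deletion reaches cells that expressed *Pdgfra* and their descendants. *Mgp* encodes matrix Gla protein, an extracellular inhibitor of bone morphogenetic proteins. With 1 library per genotype there was no replicate, so no test was made, all intervals are at 95% and cover counting error only, and genotype and library cannot be told apart. The labels give no other allele or treatment for any group and replicate number 1 for all 3 libraries, and lipid-filled adipocytes had been removed by centrifugation before sorting.

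White adipocytes arise from *Pdgfra*-positive progenitors. Along this lineage *Dpp4* and *Pi16* mark interstitial progenitors, and *Icam1* marks preadipocytes, the stage before the adipocyte. The transcription factors PPARγ and C/EBPα drive the last step by switching on genes of fatty acid uptake, triglyceride storage and hormone secretion, while collagens and other genes of the fibroblast program are lowered. Cells early in this step can hold adipocyte RNA before they fill with lipid.

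The bases just before the transcription start of *Adipoq* and *Plin1*, the genes that define these cells, and of *Adig* (adipogenin), which stood among the most raised genes below, are shown because C/EBPα and PPARγ act through such regulatory DNA. The sequences are from RefSeq on GRCm38.p6, on the strand of the gene, with the C/EBP core (TTGCNNAA, either strand) and the nuclear receptor half-site (AGGTCA, either strand) in capitals. *Adipoq* lies on chromosome 16 (chr16:23146286-23146535, plus strand), *Plin1* on chromosome 7 (chr7:79732904-79733026, minus strand) and *Adig* on chromosome 2 (chr2:158502362-158502611, plus strand), each window lying upstream of the gene.
*Adipoq*: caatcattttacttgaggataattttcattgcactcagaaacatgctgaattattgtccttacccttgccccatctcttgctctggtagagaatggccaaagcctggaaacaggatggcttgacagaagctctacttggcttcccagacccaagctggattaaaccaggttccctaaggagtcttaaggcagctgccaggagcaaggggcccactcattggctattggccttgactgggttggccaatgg
*Plin1*: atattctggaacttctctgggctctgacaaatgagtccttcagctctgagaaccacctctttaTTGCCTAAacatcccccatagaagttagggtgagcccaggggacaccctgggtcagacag
*Adig*: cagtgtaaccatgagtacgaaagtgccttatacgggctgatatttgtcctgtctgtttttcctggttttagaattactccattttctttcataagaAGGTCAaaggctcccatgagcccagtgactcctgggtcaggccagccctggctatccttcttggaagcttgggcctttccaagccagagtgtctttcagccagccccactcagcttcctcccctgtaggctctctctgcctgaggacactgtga
In 250 bases before the start, a C/EBP core stood in 9.55% of 27025 promoters and a half-site in 13.8%. Of the 20 genes most raised in early adipocytes, 12 were in the RefSeq table, and 1 of them (*Plin1*) held a C/EBP core (2 matches, the other lying between the printed run and the RefSeq start) and 2 (*Adig* and *Fcor*) a half-site. *Adrb3*, *Car3*, *Fabp5*, *Gpd1*, *Hp*, *Mrap*, *Ppp1r1a* and *Smoc1* were not in it.

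Early adipocytes were scarcer in both knockout libraries than in the wild-type library. They made up 0.932% of the kept cells in wild-type (interval 0.758 to 1.14), 0.127% in *Mgp*-KO (0.0727 to 0.207) and 0.204% in *Pd*-KO (0.121 to 0.322). Relative to wild-type, the share was 7.33-fold lower in *Mgp*-KO (log2 ratio -2.87, -3.74 to -2.10) and 4.57-fold lower in *Pd*-KO (-2.19, -3.00 to -1.46). Neither knockout interval overlapped that of wild-type. Over all barcodes of at least 500 UMIs, the log2 ratios were -1.22 in *Mgp*-KO and -0.55 in *Pd*-KO, the latter with an interval that included 0 (-1.36 to 0.19). The study names 500 as its floor, but this set is not the cells it kept. It took in 34876 wild-type barcodes in place of 10511, and far fewer were added in the knockouts (13222 in *Mgp*-KO and 9369 in *Pd*-KO in all). Between the knockouts the log2 ratio was -0.68 with an interval that included 0 (-1.75 to 0.37). Taken over cells with a *Pdgfra* UMI and the early adipocytes themselves, the shares were 1.26%, 0.176% and 0.282%.

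Depth moved with these shares. Early adipocytes were among the deepest cells of each library, with a median of 35367.5 UMIs against 12802 for all kept wild-type cells, 13698 against 6445 in *Mgp*-KO and 13426.5 against 8269 in *Pd*-KO. Of the 98 wild-type early adipocytes, 71 lay above the 95th percentile of UMIs of their library, as did 8 of 16 in *Mgp*-KO and 7 of 18 in *Pd*-KO. When every cell was thinned to 4000 UMIs and the same gate applied, the shares were 0.267% (0.175 to 0.392) in wild-type, 0.0577% (0.0212 to 0.126) in *Mgp*-KO and 0.0805% (0.0295 to 0.175) in *Pd*-KO, from 26, 6 and 6 cells. The log2 ratios to wild-type were then -2.21 and -1.73, and both intervals stayed below 0. Without the 5% of cells of most UMIs, *Pd*-KO against wild-type came to -1.04 with an interval that reached 0 (-2.20 to 0.02), while *Mgp*-KO stood at -2.01 (-3.36 to -0.84). No doublet caller was run. Since each library pooled both sexes, barcodes with both *Xist* and Y-linked UMIs give a view of mixed RNA, and they were 15 of 98 early adipocytes in wild-type (783 of 10511 kept cells), 0 of 16 in *Mgp*-KO (241 of 12575) and 1 of 18 in *Pd*-KO (303 of 8819). A call needed only 1 UMI of each kind, so these counts depend on depth, which was greatest in wild-type early adipocytes. The part of doublets in the shares was not tested further.

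**Figure D1:**
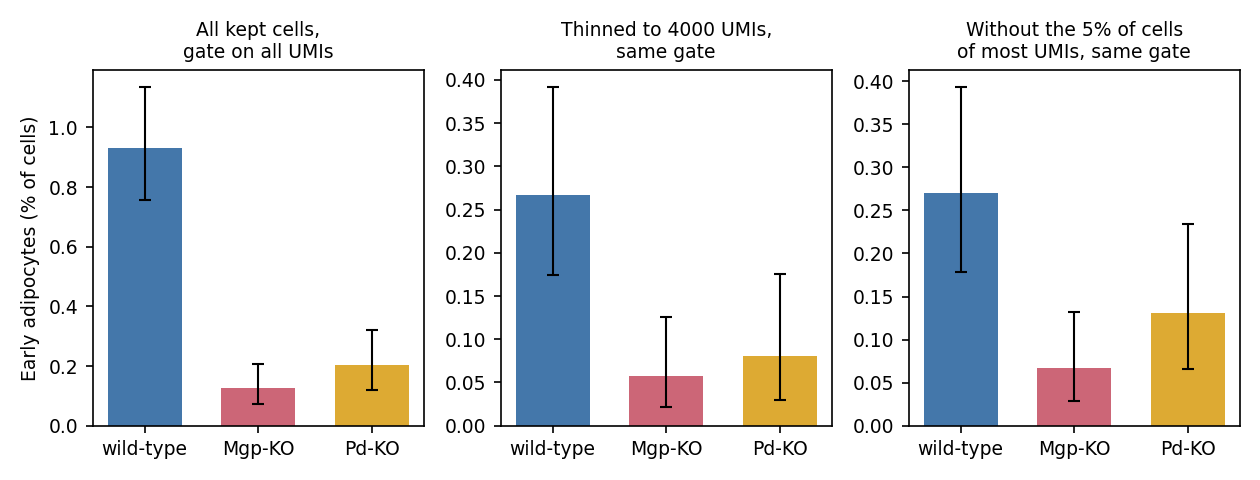
Share of early adipocytes (percent of cells, y axis) in each library, with the gate on all UMIs, after thinning to 4000 UMIs, and without the cells above the 95th percentile of UMIs. Cells under 4000 UMIs were left out of the thinned panel. Bars give the share and error bars the exact binomial interval, and the y axes differ between panels. Wild-type stood highest in each panel, at 0.932%, 0.267% and 0.270%.

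The exclusion genes removed more cells from wild-type than from *Pd*-KO. Of the cells that met the *Adipoq* and *Plin1* limits, 21 of 119 in wild-type, 5 of 21 in *Mgp*-KO and 0 of 18 in *Pd*-KO held a UMI of *Epcam*, *Pecam1* or *Ptprc*, most often of the endothelial gene *Pecam1* (14 cells in wild-type and 4 in *Mgp*-KO). By *Xist* or Y-linked UMIs alone, in wild-type, 36 early adipocytes were called female and 42 male (0.976% and 1.14% of the cells of that sex), in *Pd*-KO 6 and 8 (0.209% and 0.230%), and in *Mgp*-KO 7 and 7, where female cells were far more numerous (0.0919% and 0.379%). In each library the male share was the higher, and the female and male intervals overlapped. Barcodes shared between libraries numbered 35 to 40 per pair, and none was an early adipocyte.

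At the edge of the gate, *Car3* and *Dcn* of wild-type had levels between those of all early adipocytes and of *Pdgfra*-positive cells, and *Cfd* did not. Just inside were cells with 5 to 7 *Adipoq* or 2 *Plin1* UMIs, and just outside those with 5 or more *Adipoq* but 1 *Plin1* UMI, or with 1 to 4 *Adipoq* and at least 1 *Plin1* UMI. *Car3*, the gene of carbonic anhydrase 3, a cytosolic enzyme abundant in fat cells, was at 7310 CPM (the UMIs of a group scaled to a common total) in the 16 wild-type cells just inside the limits, and at 4537 CPM in the 44 just outside. The 98 early adipocytes as a whole stood at 13461 CPM, and *Pdgfra*-positive cells at 167 CPM. *Dcn*, which encodes the proteoglycan decorin of fibroblasts, ran the other way, at 3628 CPM just inside, 4883 CPM just outside and 2021 CPM in all early adipocytes. *Cfd*, the gene of adipsin, a product of mature fat cells, was at 414 CPM just inside and 0 just outside in wild-type, against 93.3 CPM in all early adipocytes. Of the wild-type cells with 20 or more *Adipoq* UMIs, 77 of 78 also held at least 2 UMIs of *Plin1*. The reverse did not hold, since 264 wild-type cells had at least 2 UMIs of *Plin1* and none of *Adipoq*. The 225 of these that lacked the exclusion genes had 1223 CPM of the smooth muscle gene *Myh11* and 975 CPM of the pericyte gene *Rgs5*. Their summed UMIs also held 15801 CPM of *Fabp4*, 3485 CPM of *Dcn*, 1612 CPM of *Car3* and 112 CPM of *Pdgfra*.

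Early adipocytes were also described by marker genes that the gate did not use. These markers were chosen with earlier results of these data known, so their levels are no independent check of the label. Levels are UMIs summed over the cells of a group, and early adipocytes were compared with 7300, 9053 and 6323 cells with at least 1 *Pdgfra* UMI and no *Plin1* UMI, in the order wild-type, *Mgp*-KO and *Pd*-KO, the order kept for each set of 3 values. *Adipoq* itself was at 1270, 1849 and 1193 CPM in early adipocytes and at 3.38, 1.01 and 0.827 CPM in *Pdgfra*-positive cells, and *Plin1* at 433, 590 and 584 CPM. Both values follow from the gate. *Car3* was found in all 98, 16 and 18 early adipocytes, at 13461, 14970 and 11140 CPM, against 167, 46.2 and 28.0 CPM in *Pdgfra*-positive cells (log2 ratios 6.33, 8.34 and 8.64). *Retn*, the gene of the adipocyte hormone resistin, was at 365, 594 and 521 CPM against 1.60, 0.983 and 0.389 CPM. *G0s2*, whose product inhibits the lipase ATGL, was at 2260, 1213 and 2815 CPM against 83.6, 52.8 and 36.6 CPM. Each was higher in early adipocytes of each library. *Car3* also stood above its level in *Pdgfra*-positive cells with at least 2 UMIs of *Icam1* (217, 117 and 67.6 CPM) and of *Pi16* (95.5, 7.05 and 7.59 CPM).

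Some genes of the mature fat cell were found in few cells, while others were found in most. *Lpl*, *Fabp4* and *Agpat2* held a UMI in all 98 wild-type early adipocytes, *Acsl1* in 89, *Lipe* in 85 and *Retn* in 79. *Cfd* held a UMI in 9 of 98, 6 of 16 and 4 of 18 early adipocytes, against 8.65%, 13.6% and 11.4% of endothelial cells. After thinning to 2000 UMIs the shares were 4.08%, 31.2% and 5.56% against 3.81%, 11.1% and 7.58%, so that in wild-type and *Pd*-KO single *Cfd* UMIs are read as background. Its summed level of 93.3, 2330 and 38.7 CPM rested on few cells, 1 cell alone giving 52.7%, 61.4% and 36.4% of the UMIs. *Lep*, the gene of leptin, had 3 UMIs in all wild-type early adipocytes and none in the knockouts, and the droplet protein gene *Plin5* had 1 UMI in wild-type and none in the knockouts. *Ucp1*, the uncoupling protein of brown and beige fat, had 2 UMIs in wild-type and none in either knockout, and *Elovl3* had none in any library. *Pdgfra* held a UMI in 47 of 98, 4 of 16 and 9 of 18 early adipocytes, and after thinning to 2000 UMIs in 6 of 98, 2 of 16 and 4 of 18, against 46.4%, 56.2% and 53.2% of the *Pdgfra*-positive cells, which were chosen by it.

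**Figure D2:**
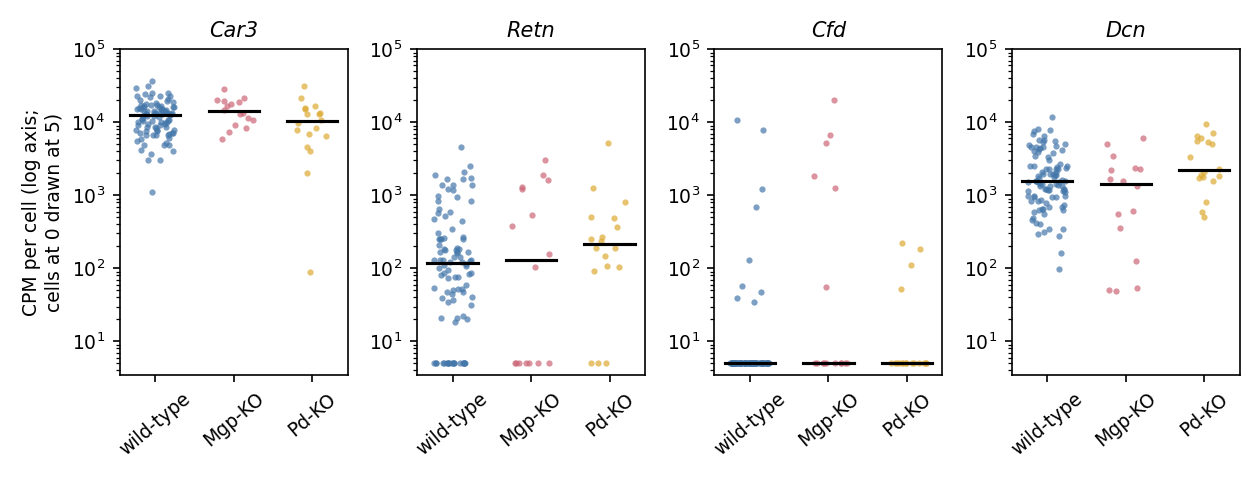
CPM of *Car3*, *Retn*, *Cfd* and *Dcn* in each early adipocyte (points, log y axis, cells with no UMI drawn at 5) by library, with the median as a line. *Car3* was detected in every cell, whereas *Cfd* was listed at 0 in most, and *Dcn* spread from 96.7 to 11924 CPM in wild-type.

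Across the transcriptome, 3037 genes reached a mean of 50 CPM over the 6 compared groups (early adipocytes and *Pdgfra*-positive cells of each library). A gene that was low in one of the populations, such as *Gpd1*, *Acsl1*, *Cidec* or *Adrb3* in *Pdgfra*-positive cells, entered through the other and had to differ, so the counts and medians of the gene lists below describe the genes that entered and rank no list. Of the 3037 genes, 344 (11.3%) were at least 2-fold higher in early adipocytes than in *Pdgfra*-positive cells in each of the 3 libraries, and 374 (12.3%) were at least 2-fold lower in each. The median log2 ratio of all these genes was -0.05 in wild-type, 0.03 in *Mgp*-KO and 0.19 in *Pd*-KO. The early adipocytes of each library were set against the *Pdgfra*-positive cells of the same library, so no cells were shared between these comparisons. By the log2 ratio nearest to 0 of the 3 libraries, the 20 highest genes were *Plin1*, *Adipoq*, *Adrb3*, *Retn*, *Adig*, *Cidec*, *Car3*, *Gpd1*, *Acsl1*, *Hp*, *Ppp1r1a*, *Smoc1*, *Cfd*, *Fabp5*, *Mrap*, *Nnat*, *G0s2*, *Car5b*, *Agpat2* and *Fcor*. The 10 lowest were *Ppp2r2b*, *Lrrn4cl*, *Flrt2*, *Igfbp3*, *Mmp3*, *Osr1*, *Pi15*, *Opcml*, *Galnt17* and *Plat*.

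Several genes of fatty acid and glycerol handling were higher in early adipocytes. Of 10 listed genes 7 could be compared, and 6 of them (*Fabp4*, *Fabp5*, *Acsl1*, *Gpd1*, *Car3* and *Acadm*) were 2-fold higher in each library, beside 11.3% of all compared genes. The list median was 4.69, 5.16 and 5.70 on the log2 scale. *Fabp4*, the fatty acid chaperone of fat cells, was at 25873, 30830 and 16872 CPM in early adipocytes against 3257, 1169 and 777 CPM in *Pdgfra*-positive cells. *Acsl1*, which activates fatty acids with coenzyme A, was at 372, 678 and 387 CPM against 6.43, 7.41 and 6.97 CPM. *Gpd1*, which makes glycerol 3-phosphate for triglycerides, was at 193, 230 and 49.3 CPM against 1.25, 0.675 and 0.746 CPM. In *Pd*-KO, *Gpd1* came from 5 of 18 cells, and 1 cell gave 71.4% of its UMIs. *Cd36*, the fatty acid translocase, was the compared gene outside the 6, with 401 against 211 CPM in wild-type (log2 0.93) and 2.58 and 2.33 in the knockouts.

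Of 8 listed genes of triglyceride synthesis 3 could be compared, and 2 were higher in each library, beside 11.3% of all compared genes. *Agpat2*, which adds the second fatty acid to glycerol, was detected in every early adipocyte, at 390, 347 and 500 CPM against 18.2, 14.4 and 11.9 CPM. *Gpam*, which adds the first, was at 70.7, 66.9 and 179 CPM against 14.6, 17.7 and 21.2 CPM. *Dgat1*, *Dgat2*, *Lpin1*, *Pck1* and *Mogat1* were under the 50 CPM mean, *Dgat2*, which makes triglyceride from diglyceride, with 81.7, 87.9 and 91.5 CPM against 3.57, 2.79 and 1.86 CPM. *Pck1*, a source of glycerol carbon in fat, was at 41.8 and 20.9 CPM in wild-type and *Mgp*-KO and had no UMI in *Pd*-KO, where a floor of 3 UMIs is 10.6 CPM.

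Of 10 listed droplet genes 5 and of 10 lipolysis genes 4 did not enter the comparison. Of 5 compared droplet genes, 3 (*Cidec*, *G0s2* and *Bscl2*) were higher in each library, and of 6 compared lipolysis genes, 5 (*Lipe*, *Pnpla2*, *Abhd5*, *Adrb3* and *Pde3b*). The share over all compared genes was 11.3%. *Cidec*, which fuses droplets, was at 53.7, 247 and 38.7 CPM in early adipocytes and at 0.375, 0.455 and 0.162 CPM in *Pdgfra*-positive cells. *Pnpla2*, the gene of the lipase ATGL, was at 265, 506 and 186 CPM against 21.7, 16.8 and 13.0 CPM, and *Lipe*, hormone-sensitive lipase, at 123, 180 and 73.9 CPM against 6.43, 5.56 and 6.92 CPM. *Adrb3*, the β3-adrenergic receptor through which catecholamines start lipolysis, was at 153, 138 and 183 CPM in early adipocytes. It had 49, 3 and 1 UMIs in all *Pdgfra*-positive cells of the libraries. In early adipocytes it was found in 72 of 98, 8 of 16 and 8 of 18 cells. *Plin2*, a droplet coat found in many cell types, differed less (411, 289 and 320 CPM against 251, 169 and 104 CPM).

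Of 7 compared genes for secreted proteins, 5 (*Retn*, *Cfd*, *Agt*, *Rbp4* and *Lpl*) were higher in each library, beside 11.3% of all compared genes. *Cfd* is counted here by its summed UMIs. It was found in 9 of 98 wild-type and 4 of 18 *Pd*-KO cells, where single *Cfd* UMIs are read as background. *Lpl*, the lipase that frees fatty acids from lipoproteins, was at 5231, 3088 and 5025 CPM against 2426, 1281 and 1119 CPM (log2 1.11, 1.27 and 2.17). *Agt*, angiotensinogen, was at 179, 180 and 408 CPM against 19.4, 9.96 and 12.1 CPM. *Hp*, haptoglobin, an acute phase protein that fat also makes, was at 170, 874 and 774 CPM against 3.67, 4.00 and 6.39 CPM. *Angptl4*, an inhibitor of lipoprotein lipase, was lower in wild-type early adipocytes (276 against 357 CPM) and higher in both knockouts (259 against 141 CPM and 194 against 131 CPM).

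Of the adipogenic transcription factors only *Pparg* and *Cebpa* were 2-fold higher in each library among 7 compared, and *Klf4* was lower. Beside them, 11.3% of all compared genes were higher and 12.3% lower, and 1 lower gene of 7 is near the latter share. *Cebpa* was at 271, 218 and 366 CPM in early adipocytes against 22.3, 11.5 and 10.9 CPM (log2 3.60, 4.24 and 5.06), and held a UMI in 97 of 98 wild-type cells. *Pparg* was at 299, 335 and 482 CPM against 44.4, 42.5 and 65.2 CPM (2.75, 2.98 and 2.89). Against *Pdgfra*-positive cells with at least 2 UMIs of *Icam1*, the preadipocyte marker, *Pparg* still stood higher by 2.41, 2.18 and 1.79, and *Cebpa* by 3.28, 3.61 and 3.97. *Cebpd*, which acts early in adipogenesis, was lower at 108, 197 and 87.97 CPM against 351, 597 and 144 CPM. *Cebpb*, its early partner, differed by 0.58, 0.47 and 0.34 on the log2 scale. *Zfp521*, which restrains adipogenesis, was lower (log2 -2.002, -3.60 and -1.23).

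Of 16 compared genes of oxidative phosphorylation, 10 were higher in each library, beside 11.3% of all compared genes. *Cycs*, cytochrome c, was at 773, 464 and 229 CPM against 106, 62.7 and 36.6 CPM, a log2 ratio of 2.86, 2.89 and 2.64. *Cox5a*, a subunit of complex IV, was at 976, 958 and 464 CPM against 218, 178 and 134 CPM. The median of the list was 1.48, 1.78 and 1.21. No thermogenic gene of 12 listed reached the level for comparison. Their sum was 152, 159 and 63.3 CPM in early adipocytes against 34.1, 21.6 and 25.9 CPM. In wild-type, *Cox7a1* had 246 UMIs in 42 of 98 cells, with 28.0% in 1 cell. There *Kcnk3* had 103 UMIs in 40 cells and *Cox8b* 102 in 24. In *Pd*-KO *Cox7a1* had 0 UMIs, *Cox8b* 1 and *Kcnk3* 6. Of 7 compared genes of fatty acid synthesis, *Me1*, *Thrsp* and *Srebf1* were higher in each library, again beside 11.3% of all compared genes. *Scd1*, the desaturase of newly made fatty acids, was at 72.1 against 57.7 CPM in wild-type, 247 against 47.4 in *Mgp*-KO and 225 against 65.1 in *Pd*-KO. *Slc2a4*, the insulin-regulated glucose transporter GLUT4, was at 17.5, 16.7 and 14.1 CPM against 3.02, 0.939 and 1.28 CPM.

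**Figure D3:**
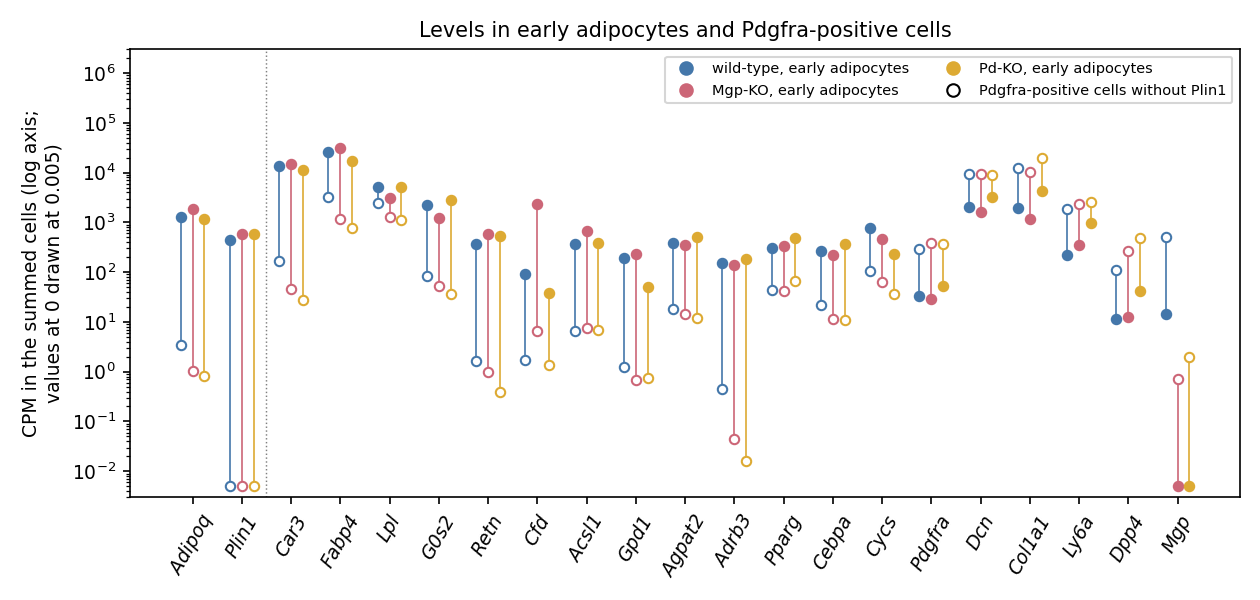
Level of 21 genes in the summed early adipocytes (filled points) and *Pdgfra*-positive cells (open points) of each library, in CPM on a log axis, with values at 0 drawn at the lower edge and the genes of the gate left of the dotted line. Fat cell genes such as *Car3* and *Adrb3* stood higher in early adipocytes of each library, and *Pdgfra*, *Dcn*, *Col1a1*, *Ly6a* and *Dpp4* lower.

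Of 11 compared progenitor genes, 10 were 2-fold lower in each library, beside 12.3% of all compared genes, with medians of -2.92, -3.87 and -2.54. *Dpp4*, the surface peptidase of interstitial progenitors, was at 11.3, 12.6 and 42.2 CPM against 108, 264 and 485 CPM. *Ly6a*, the gene of stem cell antigen 1, was at 217, 343 and 985 CPM against 1862, 2306 and 2511 CPM. *Gsn*, which encodes the actin-severing protein gelsolin, was the member that was not lower in each library, at 6122, 6514 and 7249 CPM against 11037, 9465 and 6349 CPM. *Pdgfra* was at 33.1, 29.3 and 52.8 CPM against 294, 384 and 366 CPM, a difference that the choice of the compared cells favours.

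Fibrillar matrix genes were lower as well. Of 12 fibrillar matrix genes, all compared, 11 were lower in each library, beside 12.3% of all compared genes, the exception being *Bgn*. *Col1a1*, a chain of type I collagen, was at 1930, 1176 and 4265 CPM in early adipocytes against 12604, 10454 and 19979 CPM. *Dcn* was at 2021, 1602 and 3244 CPM against 9259, 9413 and 8942 CPM. For the basement membrane and collagen VI list *Lamc1* and *Nid1* of 13 were 2-fold lower in each library, a share near the 12.3% of all compared genes, and the medians were -1.40, -1.31 and -0.21. *Col4a1*, a chain of the type IV collagen that surrounds mature fat cells, was at 568 against 1501 CPM in wild-type, 339 against 847 in *Mgp*-KO and 968 against 849 in *Pd*-KO. *Col15a1* was at 524 against 539, 284 against 184 and 894 against 306 CPM.

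**Figure D4:**
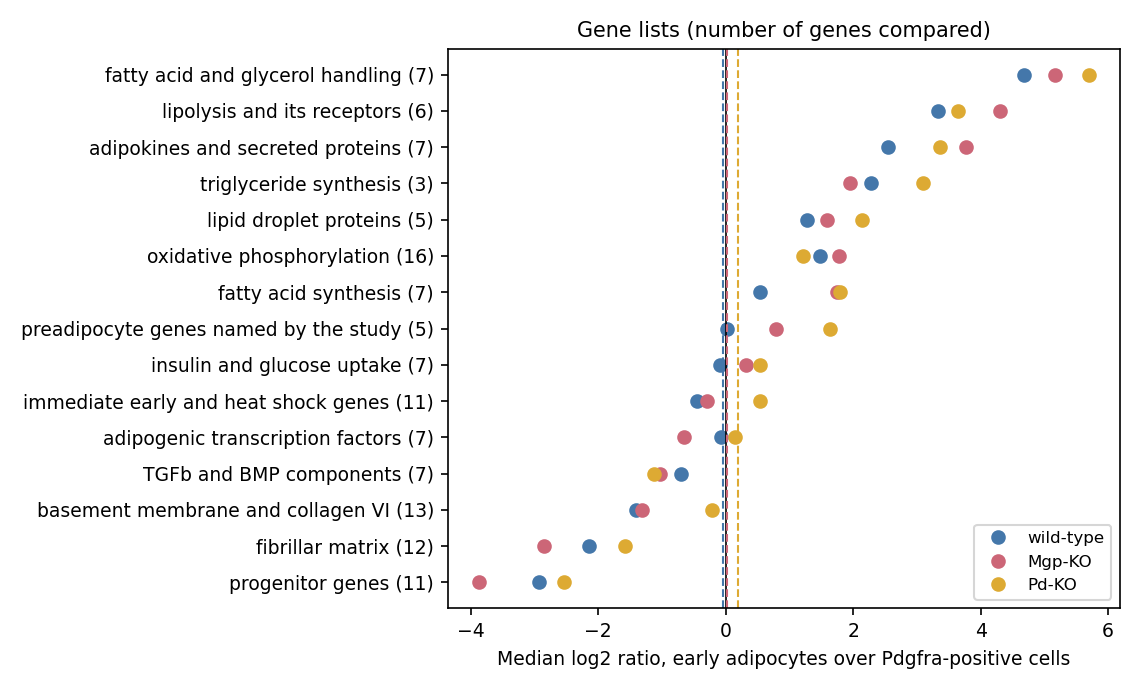
Median log2 ratio of early adipocytes over *Pdgfra*-positive cells (x axis) for each gene list (y axis, with the number of genes compared) and library, with the median of all genes as dashed lines. The medians cover only genes that reached the 50 CPM mean, and for fibrillar matrix, where all 12 genes did, they were -2.15, -2.85 and -1.58 in wild-type, *Mgp*-KO and *Pd*-KO.

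*Mgp* was low in early adipocytes of wild-type mice too. It had 50 UMIs in the 98 wild-type cells, 14.1 CPM (10.5 to 18.6), against 505 CPM in *Pdgfra*-positive cells, 254 CPM in those with *Icam1* and 553 CPM in those with *Pi16*. It held a UMI in 37 of 98 wild-type early adipocytes, 5 of 98 (5.10%) after thinning to 2000 UMIs, against 22.2% of *Pdgfra*-positive cells and 19.7% of endothelial cells. No *Mgp* UMI was found in early adipocytes of either knockout. With 3 UMIs as the floor this allows up to 12.6 CPM in *Mgp*-KO and 10.6 CPM in *Pd*-KO, close to the wild-type level. The size of any loss of *Mgp* within early adipocytes cannot be read at this depth. In *Pdgfra*-positive cells of the knockouts *Mgp* stood at 0.704 and 1.95 CPM. Among 7 compared TGFβ and BMP components, *Id1*, a target gene of BMP signals, was higher in each library (128, 192 and 77.4 CPM against 59.5, 48.6 and 17.2 CPM), 1 gene where 11.3% of all genes were higher. The receptors *Bmpr2* and *Tgfbr2* and *Id2* were lower, beside 12.3% of all compared genes.

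Of 6 cycling markers, 2 could be compared with *Pdgfra*-positive cells, and *Birc5*, of the chromosomal passenger complex, was higher in each library, beside 11.3% of all compared genes. The 6 cycling markers, among them *Mki67* and *Top2a*, summed to 534, 188 and 436 CPM against 119, 47.2 and 29.8 CPM. At least 2 UMIs of these markers were found in 56 of 98 wild-type early adipocytes, 2 of 16 in *Mgp*-KO and 4 of 18 in *Pd*-KO. After thinning to 2000 UMIs the counts were 16 of 98 (16.3%, 9.63 to 25.2), 1 of 16 (6.25%, 0.158 to 30.2) and 2 of 18 (11.1%, 1.38 to 34.7). *Pdgfra*-positive cells then stood at 2.64%, 0.906% and 0.743%, and endothelial cells at 2.77%, 1.85% and 2.65%. *Top2a* was at 12.6 against 11.8 CPM in *Mgp*-KO, with 3 UMIs. In the knockouts the RNA sat in few cells, 1 cell giving 65.7% of the *Mki67* UMIs in *Pd*-KO and 70.0% in *Mgp*-KO. In wild-type, cells with at least 2 cycling UMIs had 1249 CPM of *Adipoq* and 13286 CPM of *Car3*, close to the 1305 and 13751 CPM of the rest. Cycling and fat cell genes were found in the same barcodes, and the part of doublets in this was not tested.

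Within wild-type, early adipocytes were also described by their *Adipoq* level, a value that the gate itself used, so that the lower cells lie nearer to the gate. When the 98 cells were parted at the median of their *Adipoq* CPM, the 49 higher cells had 16185 CPM of *Car3*, 460 CPM of *Retn*, 217 CPM of *Adrb3* and 917 CPM of *Cycs*, and the 49 lower cells 10034, 246, 72.8 and 591 CPM. *Dcn*, *Col1a1* and *Ly6a* went the other way, at 1294, 1127 and 93.4 CPM in the higher cells and 2934, 2940 and 373 CPM in the lower. The 47 cells with a *Pdgfra* UMI had 254 CPM of *Retn* and 167 CPM of *Pi16*, and the 51 without had 467 and 31.5 CPM. *Lpl* was near level in both groups, at 5255 and 5200 CPM. Such groups within 1 library share its RNA background and are descriptions of these cells, not replicates.

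Between genotypes, early adipocytes were compared over genes with a mean of 100 CPM in the 3 libraries. A gene that was low in one library could enter through another, so the counts and medians of the lists describe the genes that entered and rank no list. Of 1461 such genes, 118 (8.08%) were at least 2-fold higher and 33 (2.26%) at least 2-fold lower in *Mgp*-KO relative to wild-type, and 171 (11.7%) were higher and 81 (5.54%) lower in *Pd*-KO. Both comparisons share the wild-type cells. Lists of secreted proteins, lipid droplets and lipolysis had medians between -0.15 and 0.22 in both knockouts, against medians of -0.02 and -0.15 for all genes. Among their members *Cfd* and *Cidec* were 2-fold higher in *Mgp*-KO, where 2 cells gave 85.3% and 81.4% of their UMIs. *Agt* and *Pde3b*, the latter spanning at least 100 kb, were higher in *Pd*-KO, and *Cfd* was lower there. Of 11 listed genes of fatty acid synthesis 4 entered, of which *Acaca*, *Scd1* and *Scd2* were under 100 CPM in wild-type, and 3 were higher in each knockout (*Acaca*, *Scd1* and *Thrsp* in *Mgp*-KO, and *Acaca*, *Scd1* and *Scd2* in *Pd*-KO), with a median of 1.79 and 1.75. *Acaca* spans at least 100 kb, and 2 cells gave 73.5% of its 34 UMIs in *Mgp*-KO and 54.8% of its 42 in *Pd*-KO. Fatty acid and glycerol handling was at 0.25 and -0.47, and the 2 compared genes of triglyceride synthesis had a median of -0.10 and 0.86. *Cebpa* differed by -0.32 (-0.75 to 0.09) in *Mgp*-KO and 0.43 (0.13 to 0.73) in *Pd*-KO, and *Car3* by 0.15 and -0.27. In *Pdgfra*-positive cells, on the other hand, *Car3* was lower by -1.86 and -2.58, *Fabp4* by -1.48 and -2.07, and *Apoe*, which encodes a lipoprotein of lipid transport, by -1.61 and -3.28. In early adipocytes *Fabp4* was at 0.25 and -0.62 and *Apoe* at -0.26 and -0.70. *Car3* held a UMI in 34.2%, 5.93% and 5.80% of *Pdgfra*-positive cells in wild-type, *Mgp*-KO and *Pd*-KO. The shares of endothelial cells, where single *Car3* UMIs are read as background, were 28.2%, 14.8% and 15.5%. These shares depend on depth, and the part of background in the *Car3* ratios of *Pdgfra*-positive cells was not tested. In free RNA (barcodes of 10 to 100 UMIs) *Apoe* stood at 6936, 2080 and 449 CPM, so its level outside cells moved with that in *Pdgfra*-positive cells, and its part there was not tested.

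A few fat cell genes did differ. *Hp* was higher in both knockouts by 2.36 (2.12 to 2.59) and 2.18 (1.95 to 2.41), and a UMI was held by 42 of 98, 11 of 16 and 15 of 18 cells. The cell with most *Hp* gave 45.9% of the *Hp* UMIs in *Mgp*-KO and 20.5% in *Pd*-KO. *Scd1* was higher by 1.78 and 1.64, again with 1 cell giving 35.6% and 39.1%. *Thrsp*, a lipogenic gene that responds to thyroid hormone, was at 1.79 in *Mgp*-KO, where 1 of 16 cells gave 68.1% of its 94 UMIs, and at -2.43 in *Pd*-KO, where 3 of 18 cells held 6 UMIs in all, and *Gpd1* was lower in *Pd*-KO by -1.97.

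Genes of the matrix split the knockouts. Of 11 compared fibrillar matrix genes, 8 were at least 2-fold higher in *Pd*-KO than in wild-type early adipocytes (*Col1a1*, *Col1a2*, *Col3a1*, *Col5a1*, *Col5a2*, *Fn1*, *Fbn1* and *Bgn*) and none lower, where 11.7% of all compared genes were higher. *Col5a1*, *Col5a2* and *Fbn1* span at least 100 kb, a class in which 71.7% of genes were higher in *Pd*-KO, and the other 5 span less. The list median was 1.12, against 0.54 for the same genes in *Pdgfra*-positive cells. In *Mgp*-KO none was higher and *Postn* was lower, beside 2.26% of all compared genes, with a median of -0.71 (-0.22 in *Pdgfra*-positive cells). Progenitor genes moved with the matrix genes. Of 5 compared, *Pi16* and *Ly6a* were higher in *Pd*-KO and none lower, with a median of 0.68 (-0.05 in *Pdgfra*-positive cells). In *Mgp*-KO *Pi16* was lower, again beside 2.26% of all compared genes, and the median was -0.33. That *Pi16* value rests on 3 UMIs in 3 of 16 cells, which is at the floor of 12.6 CPM. In *Pd*-KO 2 cells gave 76.8% of the *Pi16* and 52.5% of the *Ly6a* UMIs. *Col3a1*, a chain of type III collagen, was at 5782, 3326 and 12379 CPM in wild-type, *Mgp*-KO and *Pd*-KO early adipocytes. *Bgn*, the proteoglycan biglycan, was at 287, 255 and 873 CPM, and was found in all 18 *Pd*-KO cells with no more than 15.7% of its UMIs in 1 cell. Others rested more on 1 cell, which gave 43.6% of the *Fn1*, 37.7% of the *Fbn1*, 28.2% of the *Col1a1* and 27.9% of the *Col1a2* UMIs of *Pd*-KO. For cells with at least 10 *Adipoq* and 4 *Plin1* UMIs the *Pd*-KO list median was 0.25, and without the cells of most UMIs 0.28. Basement membrane and collagen VI genes had a median of 0.87 in *Pd*-KO (0.63 to 1.08 over these and the other settings) and -0.31 in *Mgp*-KO. Of its 13 listed genes, 7 span at least 100 kb, where the median of all genes was 1.75 in *Pd*-KO. By raw UMIs, which depend on depth, *Pd*-KO early adipocytes also lay nearer to the gate, with 6 of 18 holding 20 or more *Adipoq* UMIs against 8 of 16 in *Mgp*-KO and 62 of 98 in wild-type. Scaled for depth, the median *Adipoq* level per cell was 962 CPM in *Pd*-KO, 1572 CPM in *Mgp*-KO and 993 CPM in wild-type.

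A few genes of oxidative phosphorylation were lower in *Pd*-KO. Of 16 compared genes, 3 (*Cox5a*, *Uqcrc1* and *Cycs*) were at least 2-fold lower in *Pd*-KO, beside 5.54% of all genes, and none in *Mgp*-KO, with medians of -0.72 and 0.02. Scaled by the median of all genes (-0.15 in *Pd*-KO), *Cox5a* and *Uqcrc1* were no longer 2-fold lower, and *Cycs* still was, beside 3.90% of all genes. *Cycs* differed by -1.76 in *Pd*-KO and -0.73 in *Mgp*-KO. In *Pdgfra*-positive cells the medians of the list were -0.54 and -0.30. All compared genes under 20 kb, the span of most of the list, had medians of -0.31 in early adipocytes and -0.45 in *Pdgfra*-positive cells of *Pd*-KO. The 10 lowest genes in both knockouts were *AY036118*, *Gm42418*, *Pclaf*, *Phgdh*, *Tuba1b*, *Mif*, *Arxes1*, *Snrpd3*, *Eno1* and *Npm3*. *Phgdh*, the first enzyme of serine synthesis, was at 397, 188 and 123 CPM, and *Mif*, a cytokine, at 909, 456 and 334 CPM. *Pclaf*, a clamp-associated factor of DNA replication, was at 209, 12.6 and 87.97 CPM, with UMIs in 50 of 98, 2 of 16 and 4 of 18 cells. In *Pd*-KO its log2 ratio turned from -1.22 to 0.36 without the cells above the 95th percentile of UMIs. *AY036118* and *Gm42418* overlap ribosomal RNA and were lower in *Pdgfra*-positive cells too (-4.41 and -2.81, and -4.03 and -2.41).

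Genes of long genomic span led the genes higher in both knockouts. The 10 highest were *Ptprm*, *B3galt1*, *Lrmda*, *Gm4951*, *Wwox*, *Slit2*, *Gphn*, *Slc24a3*, *Acaca* and *Slit3*, and all but *Gm4951* (35.7 kb) spanned at least 100 kb. Of 145 compared genes that span at least 100 kb, 46.9% were 2-fold higher in *Mgp*-KO and 71.7% in *Pd*-KO, against 3.39% and 3.501% of 914 genes under 20 kb. The median log2 ratio of the long genes was 0.94 and 1.75 in early adipocytes and 1.09 and 1.20 in *Pdgfra*-positive cells. By their file headers, the wild-type counts were made with Cell Ranger 4 and those of both knockouts with 7.1.0, and the methods give default parameters, but for version 6.1.1. The default for intron reads differs between the versions in the headers, and which setting was used for each library is not given in the sources used here, so software and genotype cannot be told apart for these genes. Among genes under 100 kb, 3.80% and 5.09% were higher and 2.51% and 6.16% lower. *Acaca*, which makes malonyl-CoA for fatty acid synthesis, was at 17.8, 142 and 148 CPM in early adipocytes and at 12.4, 44.2 and 52.8 CPM in *Pdgfra*-positive cells. *Gm4951*, of the interferon-inducible GTPase family, was higher by 4.25 and 4.77 in early adipocytes and by 1.71 and 2.54 in *Pdgfra*-positive cells.

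**Figure D5:**
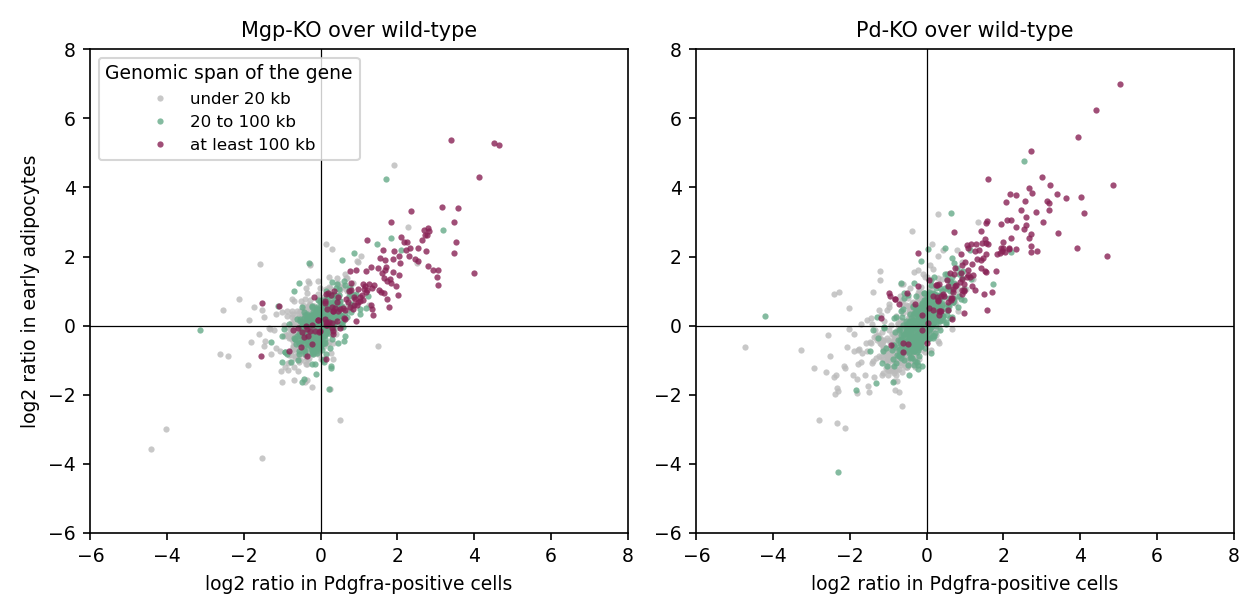
Log2 ratio of each knockout over wild-type in early adipocytes (y axis) and in *Pdgfra*-positive cells (x axis) for 1461 genes, coloured by genomic span. Genes of at least 100 kb lay to the upper right in both panels, with medians of 0.94 and 1.75 in early adipocytes.

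Markers of other cell types were found in early adipocytes at levels that differed by list and library. The gate required 0 UMIs of an epithelial, an endothelial and an immune gene and used no mural gene, so the lists cannot be ranked against each other. The 6 endothelial markers summed to 26.6, 12.6 and 21.1 CPM in wild-type, *Mgp*-KO and *Pd*-KO, with *Egfl7* the most abundant (16.1, 8.37 and 21.1 CPM) and *Cdh5* and *Kdr* at 0 in both knockouts. The 6 mural markers summed to 306, 16.7 and 239 CPM, led by *Acta2* (144 CPM) in wild-type and *Rgs5* (165 CPM) in *Pd*-KO, with *Myh11*, *Acta2* and *Rgs5* at 0 in *Mgp*-KO. All *Rgs5* UMIs of *Pd*-KO were in 1 cell, and 56.1% of the *Acta2* UMIs of wild-type in another. In *Pdgfra*-positive cells the mural sum was 451, 110 and 111 CPM. Epithelial markers summed to 13.9 CPM in wild-type, with *Krt14* and *Krt17* at 0, and immune markers to 2.83 CPM, with *Tyrobp* at 0, and both lists were at 0 in the knockouts. Schwann and neuron markers summed to 13.6, 20.9 and 10.6 CPM, and red cell markers to 24.3, 4.18 and 3.52 CPM, against 31944 CPM in the free RNA of the wild-type library. Free RNA held 11.3, 15.2 and 6.58 CPM of *Adipoq*, and endothelial cells held an *Adipoq* UMI in 2.60%, 3.09% and 1.33% of cells, at median depths of 6982, 3657 and 4255 UMIs. *Car3* UMIs were found in 28.2%, 14.8% and 15.5% of endothelial cells, so single *Car3* UMIs are read as background.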

How the data were processed

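The authors deposited UMI counts per gene and barcode for 3 libraries, unfiltered and not normalized. The methods name Cell Ranger 6.1.1 and mm10, the processing notes GRCm39, and the file headers Cell Ranger 4 (wild-type) and 7.1.0 (both knockouts). The files hold 184102026, 93212243 and 83942865 UMIs for wild-type, *Mgp*-KO and *Pd*-KO, of which early adipocytes held 3537463, 239018 and 284191. Members and gene lists were chosen with earlier results of these data known. UMIs were summed over the cells of a group and scaled to a common total (CPM), and 0.5 UMIs were added before log2 ratios of genes compared with each other. Genes were compared at a mean of at least 50 CPM (against *Pdgfra*-positive cells) or 100 CPM (between genotypes), and called past a log2 ratio of 1. Named genes were the 20 highest and 10 lowest against *Pdgfra*-positive cells, the 10 highest and 10 lowest in both knockouts without *Mgp*, *Xist* and Y-linked genes, and the lists. Intervals were exact: Clopper-Pearson for shares, Poisson for sums and conditional binomial for ratios. Spans came from GENCODE M21 (GRCm38). Steps were tested on simulated data. Python 3.11.15, numpy 2.4.6, pandas 2.3.3 and scipy 1.17.1 were used. Alternatives covered depth, gate, comparator, scaling, filters and free RNA. No doublet caller was run. Some items are not reported here.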

Additional observations from a re-analysis of the deposited data

Results flagged for a closer look

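For 13 genes the log2 ratio of early adipocytes over *Pdgfra*-positive cells pointed one way in one library and the other way in another, each with an interval that left out 0. These differences between libraries were not tested, since each genotype had 1 library. *Angptl4* was at -0.37 in wild-type, 0.88 in *Mgp*-KO and 0.56 in *Pd*-KO. In the other 12 genes *Pd*-KO stood above 0 and wild-type below. The median of all genes was -0.05, 0.03 and 0.19 in wild-type, *Mgp*-KO and *Pd*-KO, and the *Pd*-KO values of *Ebf1*, *Gsn* and *Col4a1* lay no higher than that median.

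Matrix and growth factor genes were among them. In wild-type, *Mgp*-KO and *Pd*-KO, *Bgn* was at -1.26, -0.96 and 0.56, *Col4a1* at -1.40, -1.32 and 0.19, *Gsn* at -0.85, -0.54 and 0.19, and *Igf1*, insulin-like growth factor 1, at -0.28, -0.53 and 0.50. *Ebf1*, an adipogenic transcription factor, was at -0.069, -0.66 and 0.15. In wild-type and *Pd*-KO alone, *Bmper*, a BMP modulator, was at -0.43 and 1.02 and *Nid2*, of the basement membrane, at -0.31 and 1.11.

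Immediate early genes formed the other group. In wild-type, *Mgp*-KO and *Pd*-KO, *Egr1* was at -0.65, -0.38 and 0.31, *Fos* at -0.28, -0.37 and 0.56, and *Ier2* at -0.47, -0.40 and 1.02. In wild-type and *Pd*-KO, *Jun* was at -0.33 and 0.53 and *Junb* at -0.34 and 0.55. The 12 immediate early and heat shock genes, which respond to handling of tissue, summed to 8152, 10945 and 5521 CPM in early adipocytes, to 10175, 12274 and 3926 CPM in *Pdgfra*-positive cells and to 14101, 12969 and 4222 CPM in free RNA, and the part of free RNA was not tested.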

How the results depend on the processing

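No paired analysis was possible because each genotype had 1 library. The share of early adipocytes stayed below wild-type in both knockouts under every alternative run. Over all barcodes of at least 500 UMIs, which took in 34876 wild-type barcodes in place of 10511, the log2 ratios were -1.22 in *Mgp*-KO and -0.55 in *Pd*-KO (-1.36 to 0.19). Without cells above the 95th percentile of UMIs they were -2.01 and -1.04, and without cells holding UMIs of other types *Pd*-KO was at -1.45. Of the compared genes, 12.4% were higher and 6.04% lower in *Mgp*-KO without the cells above the 95th percentile. The lower share there was 1.43% at a mean of at least 200 CPM and 3.56% with 10% of free RNA subtracted. In *Pd*-KO 18.1% were higher at a mean of at least 50 CPM. For genes that span under 100 kb, an alternative chosen after seeing the data, 3.80% were higher in *Mgp*-KO and 5.09% in *Pd*-KO. *Pclaf* in *Pd*-KO over wild-type turned from -1.22 to 0.36 without the cells above the 95th percentile. The causes were not tested. Of the other values for shares and counts of genes, 56 moved by less than their spread or by under 1.5 times. No fit is given, and 16 and 18 knockout cells limit what the gene ratios can show.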

Other observations

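Of *Icam1*, *Bmper*, *Cd36*, *Apoe* and *Plin2*, which the study describes in 2 of its progenitor clusters, none was 2-fold higher or lower in all 3 libraries, with medians of 0.02, 0.78 and 1.64 in wild-type, *Mgp*-KO and *Pd*-KO. *Apoe* was at 7190 against 7097 CPM in wild-type, 6025 against 2320 CPM in *Mgp*-KO and 4420 against 729 CPM in *Pd*-KO. *Dlk1*, an inhibitor of adipogenesis, was at 14.4 CPM in wild-type early adipocytes, where 1 cell gave 33.3% of its 51 UMIs. It had 1 UMI in *Mgp*-KO (4.18 CPM, interval 0.106 to 23.3) and none in *Pd*-KO, where a floor of 3 UMIs is 10.6 CPM, and no difference is read from so few UMIs.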
